A study of Homo sapiens with 41 samples.

Results

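The genes described here encode the proteasome, the protease that degrades ubiquitin-tagged proteins. They are the protein-coding genes whose symbol begins with PSMA, PSMB, PSMC, PSMD, PSME, PSMF or PSMG followed by a digit, with PSMB9 left out. The rule found 49 genes among 19974 protein-coding genes on chromosomes 1 to 22 and X (RefSeq, GRCh38.p14). All samples came from MDA-MB-231, an established line from a human breast tumour of the triple-negative type. Cells were left untreated (control), exposed to the HDAC6 inhibitor Nexturastat A (NextA) at 5 µM for 2 days, or carried a hairpin against HDAC6 (shHDAC6) or a control hairpin (shCtrl), and each library started from 100000 cells. ChIP against HDAC6 covered control, NextA and shHDAC6 cells (2 lists each), and CUT&Tag against HDAC6 covered control cells (2 lists). A pan-acetyl antibody against histone H3 acetylated at lysines 9, 14, 18, 23 and 27 was used in control and NextA cells (2 lists each). RNA polymerase II (PolII) was mapped in all 4 kinds of cell (2 lists each), and open chromatin by ATAC-seq in the same 4 (3 lists each), which makes 32 peak lists from 41 samples. The labels do not say how many hairpins or clones were used, and nothing in them says that lists of a group are separate cultures, so the spread between lists may be technical.

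The 26S proteasome has a barrel-shaped 20S core and a 19S cap at one or both ends. In the core, rings of alpha subunits (PSMA genes) gate the entry and rings of beta subunits (PSMB genes) hold the cutting sites. In the cap, a ring of ATPases (PSMC genes) unfolds the substrate, while the non-ATPase subunits (PSMD genes) capture ubiquitin chains and remove them. Subunits are needed in fixed proportion. Their genes are transcribed in nearly all cells, and the transcription factor NFE2L1 raises them together when the protease is inhibited. HDAC6 is a mainly cytoplasmic deacetylase that binds ubiquitin and carries misfolded proteins to the aggresome when the proteasome is overwhelmed.

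Promoter sequences are given first, since promoters of cap and core genes held different shares of the ETS core. This motif was picked by these counts from the 9 motifs searched. RefSeq promoters, which span 250 bases before to 50 after a start, were held for 43 of the 49 genes. PSMA7, PSMB1, PSMB6, PSMB7, PSMD4 and PSMG3 had no entry. Of these PSMA7, PSMB1, PSMB6 and PSMB7 encode core subunits and PSMD4 a cap subunit, so the core counts leave out more genes. The ETS core CCGGAA, searched on both strands, was in 24 of the 43 promoters (55.8%), against 26.6% of 15812 genes in the table and 37.3% of the 8948 with a PolII peak in both control lists. Among the cap subunits 13 of 16 genes held it: 5 of 6 ATPases and 8 of 10 non-ATPases. Among the core subunits it was present in 2 of 10, PSMA6 and PSMB5. The antioxidant response element core TGACNNNGC, the motif that NFE2L1 and NFE2L2 recognise, was in 14 of 43 promoters (32.6%), against 17.9% of all genes and 19.5% of PolII-marked genes. The CCAAT box was in 21 (48.8%, against 42.1% and 43.4%) and the GC box GGGCGG in 30 (69.8%, against 64.2% and 79.5%). The antioxidant core was in 5 of 16 cap and 2 of 10 core subunit genes, and the CCAAT box in 8 of 16 and 7 of 10. Few promoters held TATAAA (5, or 11.6%, against 12.4% and 7.32%), the NRF1 site (1), the YY1 site (1, PSMD11) or the heat shock core GAANNTTC (1), and 0 held the cAMP response element TGACGTCA, which 3.0% of all genes had. The median GC content was 61.2%, near the 62.3% of all genes. These are matches of letters in a window, counted at any start of a gene and not tested.

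The 250 bases upstream of 4 starts are shown, 5′ to 3′ along the gene, with ETS cores, antioxidant response cores and CCAAT boxes in capitals. PSMD2 (chr3:184298991-184299240, plus strand) and PSMD11 (chr17:32444260-32444509, plus strand) encode cap subunits with HDAC6 peaks in all 4 control lists. PSMB5 (chr14:23034901-23035150, minus strand, upstream of its inner start) encodes the chymotrypsin-like catalytic subunit, and its ETS cores on the 2 strands overlap. PSMD5 (chr9:120842923-120843172, minus strand), a cap assembly chaperone, had PolII peaks in parental cells and none in hairpin cells.
PSMD2: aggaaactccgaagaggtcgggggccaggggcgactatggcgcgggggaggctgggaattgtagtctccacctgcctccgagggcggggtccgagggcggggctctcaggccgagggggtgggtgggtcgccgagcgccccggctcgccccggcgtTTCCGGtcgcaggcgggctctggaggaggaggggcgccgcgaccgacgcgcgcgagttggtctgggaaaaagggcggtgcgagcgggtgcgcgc
PSMD11: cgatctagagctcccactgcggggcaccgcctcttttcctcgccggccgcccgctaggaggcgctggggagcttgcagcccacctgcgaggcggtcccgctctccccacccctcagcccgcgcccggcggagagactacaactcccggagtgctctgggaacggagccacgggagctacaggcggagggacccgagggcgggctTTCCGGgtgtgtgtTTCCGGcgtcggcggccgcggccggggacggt
PSMB5: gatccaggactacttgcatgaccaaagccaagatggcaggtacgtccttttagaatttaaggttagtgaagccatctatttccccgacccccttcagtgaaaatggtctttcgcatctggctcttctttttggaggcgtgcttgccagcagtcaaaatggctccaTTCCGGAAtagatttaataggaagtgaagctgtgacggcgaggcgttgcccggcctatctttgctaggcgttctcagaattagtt
PSMD5: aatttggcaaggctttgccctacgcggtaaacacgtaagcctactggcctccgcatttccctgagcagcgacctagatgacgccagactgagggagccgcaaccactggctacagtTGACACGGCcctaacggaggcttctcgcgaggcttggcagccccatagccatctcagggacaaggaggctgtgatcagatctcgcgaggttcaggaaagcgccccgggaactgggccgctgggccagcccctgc
Counted from the start, the first base of an ETS core lies at -94 in PSMD2, at -46 and -32 in PSMD11 and at -85 and -83 in PSMB5. Upstream of PSMD5 there was no ETS core, and an antioxidant response core began at -134.

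A gene was taken as marked when a peak overlapped the 1 kb on either side of its start by at least 1 bp. The start was the 5′ end of the gene where a strand was known (43 members) and otherwise the gene end with peaks in more lists (6 members). Peak strength is the authors' fold of the peak over the caller's background, given here as its percentile within its own list. Lists held 235 to 79666 peaks. They carry no read depth, so a missing peak means that none was listed, and lower binding, fewer cells with the mark and lower depth cannot be told apart. The line's labels were checked at marker starts: among epithelial and mesenchymal genes VIM, KRT8 and KRT18 had PolII in 8 of 8 lists, CD44 and AXL in 6, EPCAM in 3 and CDH1 in 2. ESR1 had it in 0, PGR in 1 and ERBB2 in 8. Of the 4 leukocyte genes 0 had PolII in any list, though CD3E had ATAC peaks in 5 of 12 lists and CD14 in 2. The neuronal genes SYT1, SNAP25 and RBFOX3 had PolII in 8, 4 and 0 lists. The start of HDAC6 itself had PolII in 8 of 8 and ATAC in 12 of 12 lists, which says nothing of its protein.

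**Figure D1:**
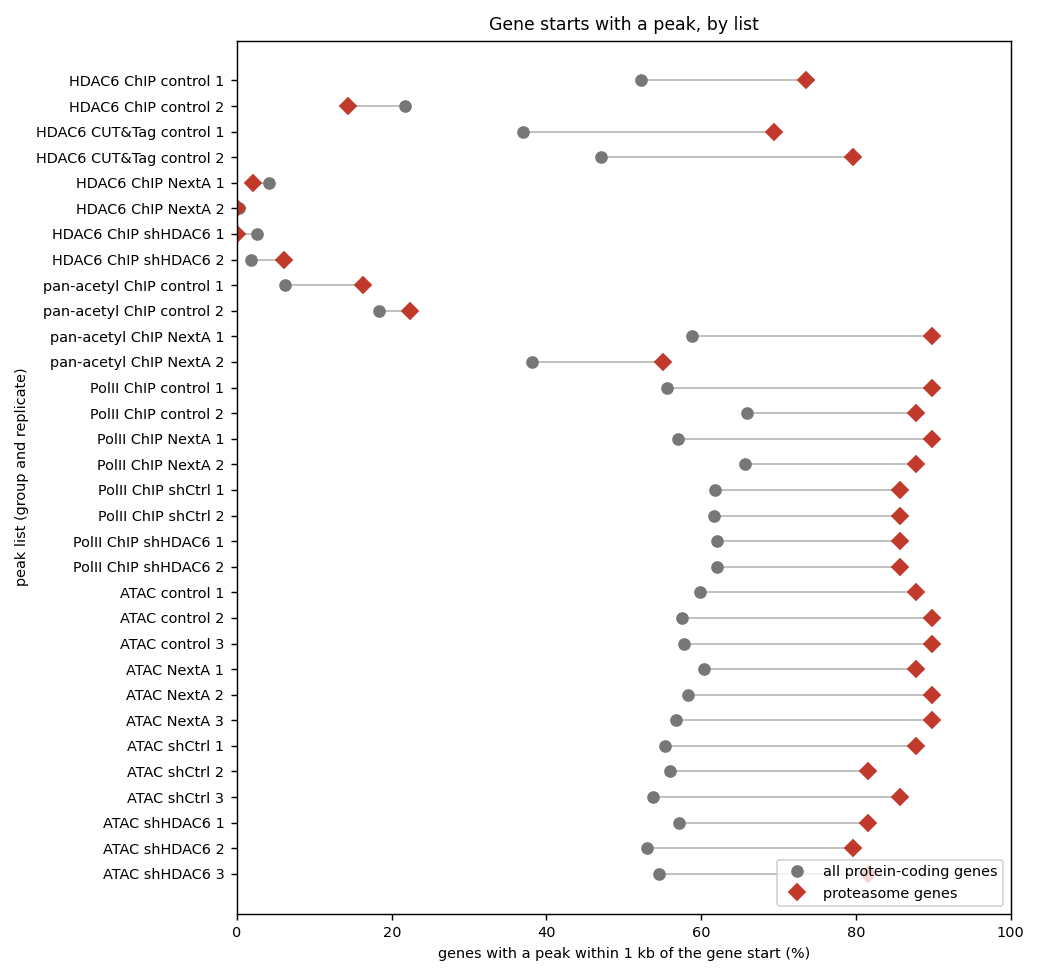
Share of the 49 proteasome genes (red diamonds) and of 19974 protein-coding genes (grey circles) with a peak within 1 kb of the start, in %, 1 row per peak list. The proteasome share is higher in every PolII and ATAC list, and lies below the share of all genes in HDAC6 ChIP control list 2, NextA lists 1 and 2 and shHDAC6 list 1.

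Proteasome gene starts carried PolII and open chromatin in nearly every list. PolII was present in both control lists at 43 of 49 members (54.0% of all genes), in both NextA lists at 43 (55.0%), in both shCtrl lists at 42 (61.1%) and in both shHDAC6 lists at 42 (61.3%). ATAC peaks were present in all 3 control lists at 42 members (50.0%), in all NextA lists at 41 (50.0%), in all shCtrl lists at 38 (48.8%) and in all shHDAC6 lists at 38 (48.9%). The median member peak stood at percentile 79.0 of its PolII list and 80.0 of its ATAC list in control cells. A peak was found in 20 or more of the 32 lists at 41 members.

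Members without peaks were few, and most of them were a matter of which start was used. PSMA8, the alpha subunit of the testis, was the single gene with 0 marked lists under every start tried. PSMB11, the beta subunit of the thymus, was marked in 4 lists, and neither of these genes had a PolII peak in any list. PSMA6 and PSMG4 had 0 marked lists and PSMF1 3 at the outer gene end, but 25, 25 and 24 at the RefSeq start of the promoter table, which lies inside the gene. For PSMA1 the outer end (chr11, position 14643662) lies beside PDE3B and was marked in 28 lists, and the inner start (position 14520386) in 24. PSMA1 values below belong to the outer end unless the inner start is named. In all, 19 of the 49 windows also held an end of another gene (for instance RNF31 at PSME2 and FTSJ3 at PSMC5), whose peak cannot be told apart from the member's own.

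**Figure D2:**
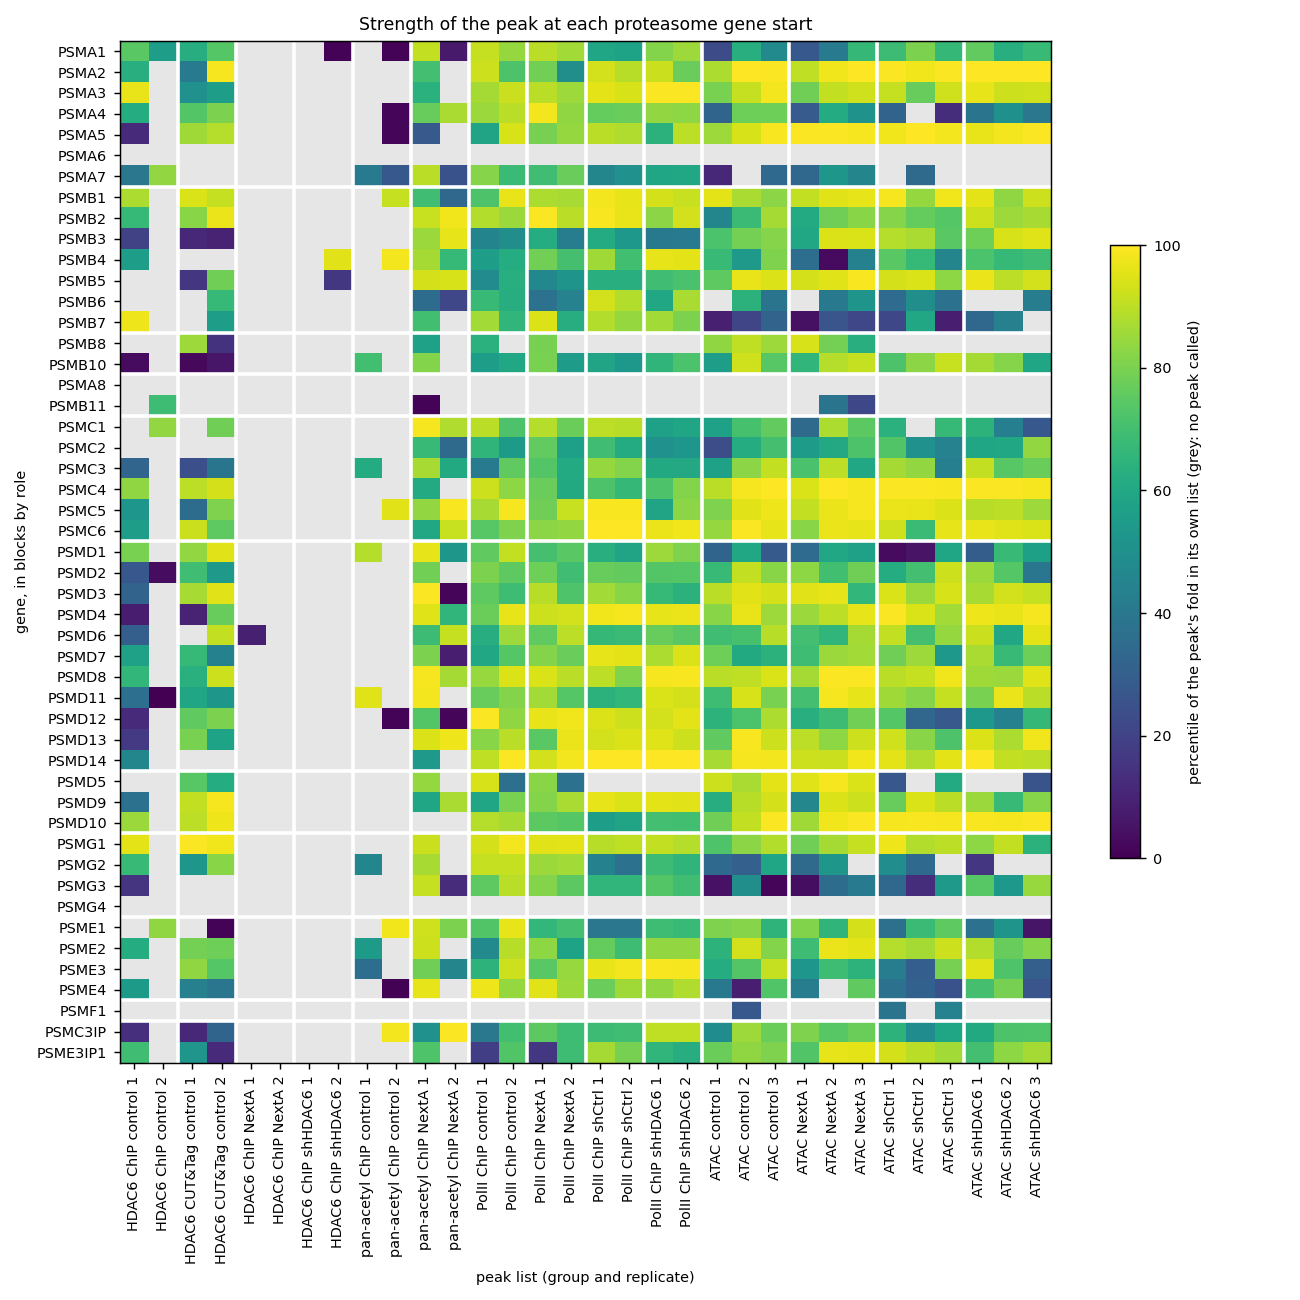
Percentile of the fold of the strongest peak at each of the 49 gene starts (rows, in blocks by role) in each of the 32 lists (columns); grey means that no peak was listed. PolII and ATAC columns are filled for most rows, the NextA and shHDAC6 columns of HDAC6 ChIP are almost empty, and PSMA6, PSMG4 and PSMA8 are empty because the outer gene end was used or no peak was listed.

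Within the PolII control lists the order of the members was loose. The highest mean percentiles were those of PSMG1, a chaperone that pairs alpha subunits (95.9 ± 3.15, SD, n = 2 lists), PSMD14, the deubiquitinase of the cap (95.0 ± 6.53), and the ATPase PSMC5 (92.9 ± 8.25). The lowest were PSME3IP1, matched by symbol only (45.8 ± 38.3), the core subunit PSMB3 (47.1 ± 3.05) and PSMC3IP, a meiotic recombination factor matched by symbol only (55.0 ± 21.1). Neighbours in this order did not differ beyond the spread between lists, and PSME3IP1 alone ran from 18.7 to 72.9.

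Of the 3 catalytic subunits of the core, PSMB5 lay below PSMB7 in the PolII control lists, and PSMB6 overlapped both. PSMB5 was at 48.4 and 63.1 in the control lists, PSMB6, the caspase-like subunit, at 67.4 and 62.3, and PSMB7, the trypsin-like subunit, at 86.2 and 65.7. In the shCtrl lists they stood at 62.6 and 62.6, 93.2 and 88.3, and 88.6 and 84.3 in the same order. The ATAC peak of PSMB5 was strong, at 75.3, 96.6 and 94.7 in the control lists. At PSMB7 it was weak, at 8.6, 21.0 and 31.7. PSMB6 had no ATAC peak in control list 1 and stood at 64.4 and 38.5 in the other two. The ubiquitin receptor PSMD4 was at 77.5 and 96.1 in PolII and at 82.1, 96.5 and 85.3 in ATAC. PSMD14 reached 86.9, 98.6 and 98.2 in ATAC.

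Immunoproteasome genes, which interferon induces, divided in this line. PSMB10 had PolII in 8 of 8 lists (55.6 and 59.9 in control) and ATAC in 12 of 12 (55.6, 92.7 and 74.1 in control). PSMB8 had ATAC peaks at 83.3, 90.6 and 85.3 in control and 93.8, 79.1 and 62.6 in NextA lists, and in none of the 6 hairpin lists. CUT&Tag listed HDAC6 at PSMB8 at 85.5 and 14.6. PolII was listed at PSMB8 in control list 1 (64.0) and NextA list 1 (79.5) alone. The activator genes PSME1 and PSME2, also induced by interferon, had PolII in all 8 lists, with PSME1 at 72.7 and 96.2 and PSME2 at 47.7 and 89.1 in control.

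ATAC summits lay close to the RefSeq starts. Over the 42 members with a strand and an ATAC peak at a table start, the median summit was 73 bp upstream (signed position -73), 34 were upstream and 36 lay within 150 bp. PSME2 (median -723 bp) and PSMB10 (1030 bp downstream) stood apart, and their ranges over 12 lists, from -740 to -679 and from 994 to 1095, do not reach the start. The PSME2 window holds the RNF31 end.

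**Figure D3:**
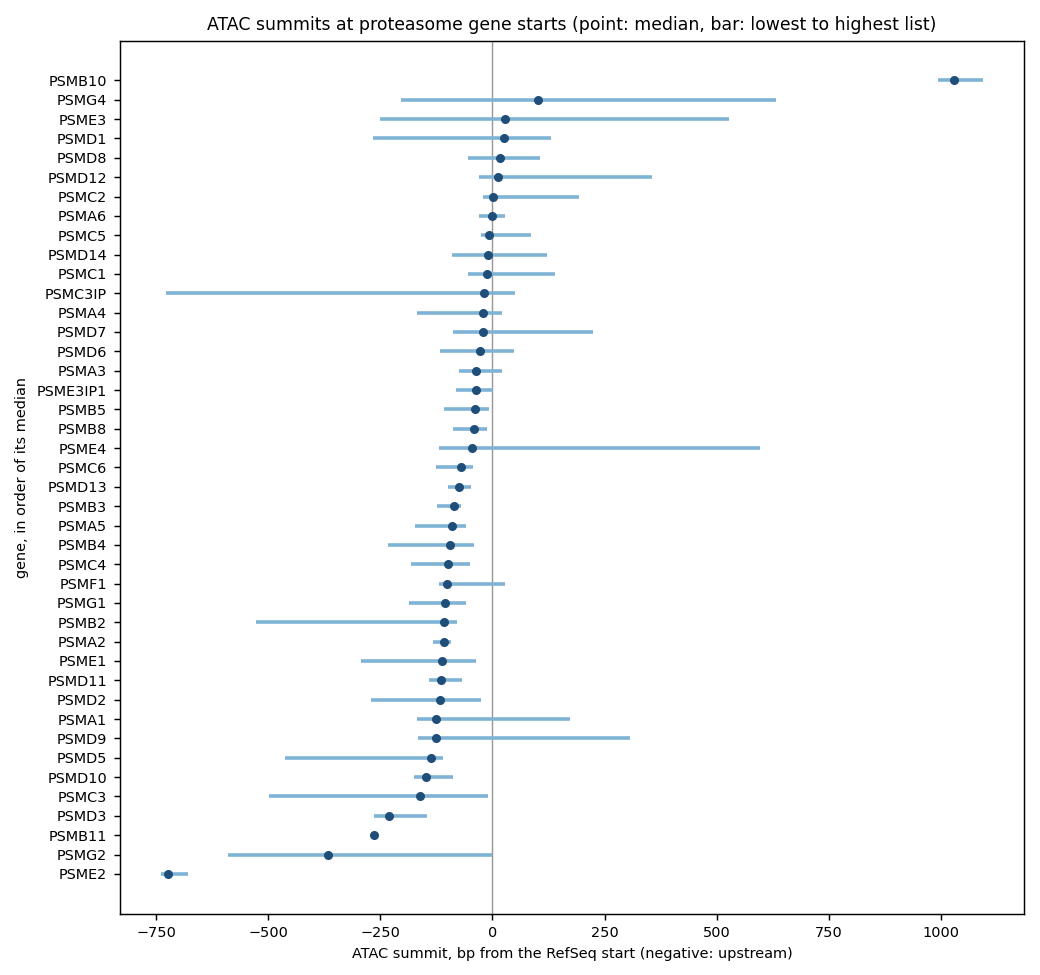
Distance in bp of the ATAC summit from the nearest RefSeq start (negative is upstream) for 42 proteasome genes; points are medians over the ATAC lists and bars run from the lowest to the highest list. All but 6 medians lie within 150 bp of the start, with PSME2 and PSMB10 far outside.

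HDAC6 in control cells was listed at many proteasome starts by 3 of the 4 lists. ChIP list 1, made with the CST antibody, marked 36 of 49 members (52.2% of all genes), and CUT&Tag lists 1 and 2 marked 34 (36.9%) and 39 (47.1%). Both CUT&Tag lists used the Novus antibody. ChIP list 2, made with the same Novus antibody, marked 7 (21.7%), so the antibody does not sort the lists by their counts. Among genes with PolII in both control lists, where 43 members fall, the counts were 36 (83.2%), 33 (63.7%), 38 (78.0%) and 6 (28.7%) in the same order. The share of members in the CST list was thus close to that of other PolII-marked genes, in the CUT&Tag lists somewhat above it and in the Novus ChIP list below it. Peak names in CUT&Tag control list 2 carry a prefix with the letters shc, which the file names of shCtrl libraries also hold. Without that list 3 members were marked in all the other control lists, as with it. Leaving out a list cannot lower such a count, so it does not bear on the label. The CST list and both CUT&Tag lists marked 30 of 49 members together (31.3% of all genes), and 30 of 43 with PolII (55.7%).

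By role, these 3 lists together marked 9 of 11 cap non-ATPases, 5 of 7 alpha subunits, 4 of 6 ATPases, 2 of 4 activators, 3 of 7 beta subunits and 1 of 2 immunoproteasome genes. The backgrounds of 31.3% of all genes and 55.7% of PolII-marked genes apply to every role, and roles were not tested. High percentiles in all 3 lists were seen at PSMG1 (95.8 in the CST list, 99.6 and 97.9 in CUT&Tag), PSMB1, a core subunit (87.5, 94.5 and 91.4), PSMD10, a cap chaperone also called gankyrin (84.9, 90.2 and 97.4), and PSMC4 (83.4, 90.1 and 93.7), examples named after their values were seen. The catalytic genes differed: PSMB5 was marked in both CUT&Tag lists (15.8 and 78.4) and in neither ChIP list, PSMB6 in CUT&Tag list 2 (67.1), and PSMB7 in the CST list (97.6) and CUT&Tag list 2 (56.0). PSMD4 was marked in the CST list (7.6) and both CUT&Tag lists (10.1 and 76.9), and PSMD14 in the CST list (45.9).

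A peak in all 4 lists was found at 3 members, PSMD2, PSMD11 and PSMA1, against 7.92% of all genes, and against 14.0% of PolII-marked genes. PSMD2, the large scaffold of the cap, stood at 27.1 in the CST list, 3.5 in the Novus ChIP list and 69.2 and 53.9 in CUT&Tag. PSMD11, another scaffold of the cap, stood at 36.6, 0.3, 58.7 and 53.0. PSMA1, an alpha subunit, stood at 74.3, 55.9, 62.2 and 73.8 at the outer gene end. At its inner start PSMA1 stood at 97.4 in the CST list and 89.7 and 89.5 in CUT&Tag, the Novus ChIP list had no PSMA1 peak, and with the starts of the promoter table the count was 2 (9.09% of all genes), PSMD2 and PSMD11. These peaks were weak to moderate, those of PSMD2 and PSMD11 among the faintest of the Novus ChIP list.

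With the inhibitor, HDAC6 peaks were gone from nearly all proteasome starts, as from nearly all genes. A gene counted as lost if all control lists held its peak and the treated lists held none, and as gained in the reverse case. Lost were 4 of the 4 members that could be, PSMD2, PSMD11, PSMA1 and PSMA7 (background 91.4%), and 0 of 10 were gained (background 0.0%). At its inner start PSMA1 had 1 marked control list and could not be counted. With lists of equal length, or at −log10 q of at least 5, 0 members and 0 of all genes had a peak in both control lists, so no gene could be lost. PSMA7, an alpha subunit, had stood at 39.8 in the CST list and 83.7 in the Novus list. NextA list 1 marked 1 member, the cap subunit PSMD6 at percentile 8.6 (4.12% of all genes), and NextA list 2 marked 0 (0.185%). Peak names in NextA list 2 begin with MNC, as those of the shCtrl PolII lists do, while NextA PolII list 2 has MNA. The list was kept in its labelled group. Without it 4 members were lost as well, but leaving out a treated list cannot undo a loss, so this count does not bear on the label. These lists held 3256 and 235 peaks against 28590 and 63833 in control, and no member could be ranked in all 4. NextA list 2 kept 0.103% of its peak numbers and control list 2 kept 23.2%, and the part of this removal in the losses was not tested.

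After knockdown HDAC6 was mapped with the Novus antibody alone. The shHDAC6 lists marked 0 members (2.55% of all genes) and 3 members (1.77%), against 7 in the control Novus list. Of these 7, 6 had no peak in either knockdown list (background 93.9%). The 3 were PSMB4, a core subunit (95.4), PSMB5 (16.1) and PSMA1 at its outer end (0.8), with no PSMA1 peak at the inner start. There was 1 control ChIP list with this antibody, so no test was made. It came from parental cells, and HDAC6 was not mapped in shCtrl cells, so hairpin, passage and knockdown cannot be told apart here. The knockdown lists held 16441 and 12152 peaks and kept 5.07% and 20.1% of their peak numbers. The control list held 63833 peaks and kept 23.2%, and the part of these differences was not tested.

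Pan-acetyl peaks were listed at more proteasome starts with the inhibitor, a count that depended on list length. Both control lists marked 1 member (2.42% of all genes), PSMA7, and both NextA lists marked 27 (33.9%). Gained were 15 of the 31 members with no control peak (48.4%, background 25.1%), and 0 of 1 was lost (background 0.0%). Among genes with PolII in both control lists, 15 of 25 members (60.0%) were gained against 53.7% of genes, so the count was near that of other PolII-marked genes. Control list 1 held 1418 peaks and the others 28473 to 61186. With all 4 lists cut to equal length 0 of 38 eligible members were gained, against 39 of 18364 genes. At −log10 q of at least 5 it was 0 of 49 members and 0 of 19789 genes, so these settings say nothing particular to the members. Leaving out control list 2 raised the gained members to 23, and leaving out NextA list 2 raised them to 26.

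Of 3 eligible alpha subunits 0 were gained, but among these was PSMA6, which had 0 marked lists at the outer gene end used here. The gained genes were 6 of 8 eligible cap non-ATPases, 4 of 5 core beta subunits, 3 of 4 ATPases, the cap chaperone PSMD9 and the core chaperone PSMG3. The backgrounds of 25.1% of eligible genes and 53.7% of those with PolII apply to every role, and roles were not tested. The strongest were PSMD13, a cap subunit (94.9 and 97.5 in the 2 NextA lists), PSMB2 (91.7 and 97.8), PSMB5 (93.6 and 93.8), PSMC1 (98.6 and 88.1), PSMD8 (98.5 and 86.7) and PSMB3 (85.1 and 96.3). PSMD4 (95.0 and 65.9), PSMD6 (68.4 and 91.1), PSMC6 (59.9 and 91.5) and PSMD9 (59.0 and 87.4) followed, and the faintest was PSMB6 (35.2 and 21.2). PSMG3, PSMC2, PSMD3 and PSMD7 made up the rest, at mean percentiles of 44.2 to 51.9. Among the catalytic genes PSMB5 and PSMB6 were gained, and PSMB7 was marked in NextA list 1 alone (69.6). PSMD14 was likewise marked in NextA list 1 alone (53.8). PSME1 was marked before and after, at 97.7 in control list 2 and at 92.9 and 80.1 in NextA.

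PolII peaks were neither lost nor gained at any proteasome start with NextA. Of 43 members marked in both control lists 0 were lost (background 0.0834%), and of 5 unmarked members 0 were gained (background 0.878%). Changes in strength were read from ranks among the 10573 genes with a peak in all 4 lists, as a percentile, so that list length did not set the rank. A gene was called higher when every treated list lay above every control list, and lower in the reverse case. With 2 lists against 2 the exact permutation p, two-sided, cannot fall below 0.33, and with 3 against 3 not below 0.1, so no single call can pass a test and all are descriptions. Higher were 4 of 43 members (background 12.5%) and lower were 8 (background 11.9%). The median difference over members was -0.59 percentile points, against 0.36 over all genes ranked.

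Among the members of higher rank, PSMB4 stood at 19.1 and 21.0 in control and 46.6 and 39.4 with NextA (difference 23.0). PSMD7, the partner of PSMD14, went from 24.0 and 40.7 to 53.0 and 52.1 (20.2). PSMB2 went from 76.8 and 64.3 to 99.0 and 77.4 (17.7). PSMC3IP went from 8.51 and 34.1 to 38.0 and 36.5 (15.9). The gap was narrow at PSMB2 and PSMC3IP and wide at PSMB4.

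Lower ranks were largest at the ATPase PSMC4, from 84.4 and 60.5 to 43.2 and 22.8 (difference -39.4). PSME1 went from 46.5 and 91.1 to 23.6 and 39.1 (-37.5). PSMD10 went from 78.3 and 69.2 to 37.9 and 45.4 (-32.1). PSMD1, a large scaffold of the cap, went from 51.4 and 78.0 to 30.0 and 47.0 (-26.2). The catalytic genes PSMB6 (from 37.0 and 21.4 to 7.52 and 5.2) and PSMB5 (from 12.9 and 22.8 to 10.1 and 11.3) were also lower, as were PSMG2 (-14.6) and PSMA3 (-6.08). With the starts of the promoter table PSMG2 went from 82.6 and 89.4 to 61.4 and 87.6, and the lists overlapped. PSMB7 was not among the calls.

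Peaks were wider with NextA at some of these genes, and the fold of a broad peak is a mean over its length. The PSMC4 peak spanned 1326 and 1246 bp in control and 15009 and 2435 bp with NextA, and that of PSME1 1395 and 1766 against 8268 and 1049 bp. Of the 8 lower members 7 had a wider mean peak with NextA, against 1 of the 4 higher members and 22 of the 31 that overlapped. Over all genes the shares were 70.4% of those called lower, 69.3% of those called higher and 69.5% of those that overlapped. The part of width in these calls was not tested. When genes were ranked by −log10 p in place of fold, the calls at PSMB4, PSMB5, PSME1, PSMA3 and PSMC4 stood, and those of the other 7 members had lists that overlapped.

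Lists numbered 1 were called on q and lists numbered 2 on p, in control and NextA alike. Within same-numbered pairs, 9 members were higher with NextA in both pairs (background 25.9%) and 13 lower in both (background 24.0%). The pairs added PSMD6, PSMC2, PSMD9, PSMC6 and PSMD3 to the higher genes, and PSMD2, PSMA2, PSMD5, PSME3IP1 and PSMC5 to the lower ones.

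**Figure D4:**
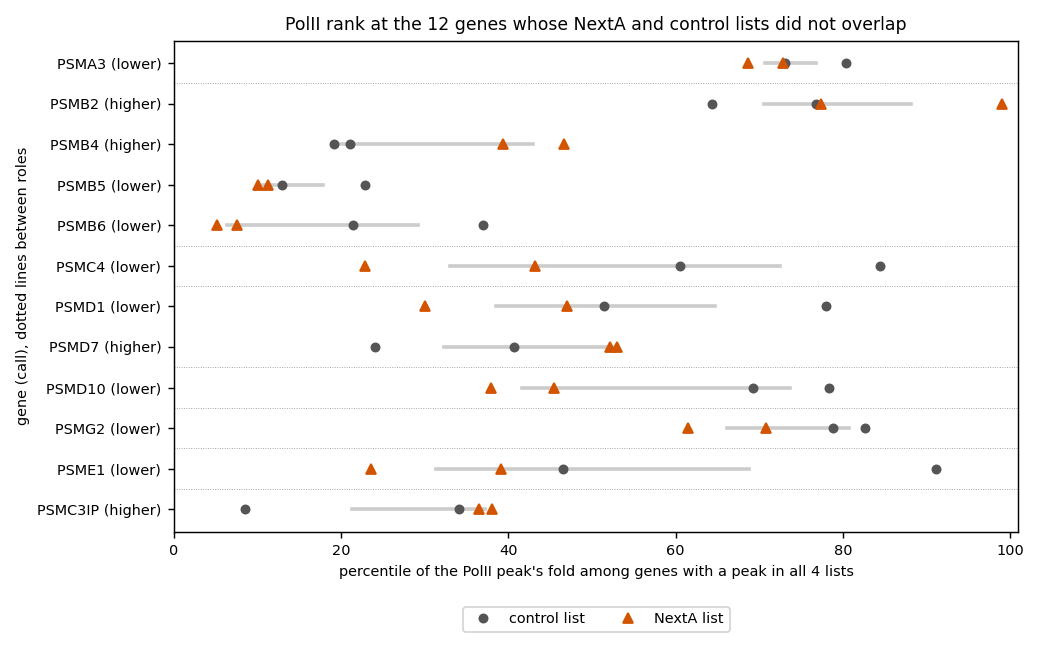
Percentile of the PolII peak's fold among 10573 genes with a peak in all 4 lists, for the 12 members whose control (grey circles) and NextA (orange triangles) lists did not overlap; grey bars join the 2 group means. The gap is wide at PSMB4, PSMC4 and PSMD10 and narrow at PSMA3, PSMB2 and PSMC3IP.

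After HDAC6 knockdown PolII also stayed at every proteasome start that had it. Of 42 members marked in both shCtrl lists 0 were lost (background 0.974%), and of 7 unmarked members 0 were gained (background 2.17%). Ranks differed at most members, as at most genes: 20 of 42 were higher (background 40.1%) and 13 lower (background 39.3%). The 2 shCtrl lists were close to each other, with a median gap of 3.42 percentile points between them against 22.7 between the 2 parental control lists, and the gap between the shHDAC6 lists was 2.98. A small shift therefore suffices for a call here. The median difference over members was 2.19 points, against 0.08 over 11996 genes ranked.

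In the ATPase ring 5 of 6 genes were lower in rank and 1 was higher. The backgrounds of 39.3% lower and 40.1% higher apply to this role and to those below. The ring is 1 of 11 role lists, and roles were not tested. PSMC1 stood at 82.6 and 81.3 in shCtrl and 36.1 and 37.6 in shHDAC6 (difference -45.1). PSMC5 went from 98.2 and 98.4 to 37.6 and 72.6 (-43.2), and its peak spanned 1809 and 1818 bp in shCtrl against 5695 and 1918 bp in shHDAC6. PSMC3 went from 72.6 and 67.6 to 40.6 and 39.7 (-30.0), and PSMC2 and PSMC6 differed by -15.3 and -3.63. PSMC4 went the other way, from 53.1 and 45.8 to 56.8 and 70.7 (14.2). The same 5 and 1 were counted when genes in these same lists were ranked by −log10 p.

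Alpha subunits and activators held no lower gene in the outer-end windows. Of 6 alpha subunits ranked 4 were higher, PSMA1, PSMA7, PSMA4 and PSMA3. The PSMA1 difference of 38.9 (35.7 and 33.6 against 70.4 and 76.7) belongs to the outer end beside PDE3B; at the inner start PSMA1 stood at 92.0 and 95.2 against 92.3 and 90.1, and the lists overlapped. PSMA6, ranked only at its inner start, was lower, from 53.3 and 54.1 to 20.9 and 22.4. Of 4 activators 3 were higher: PSME1 went from 15.3 and 14.9 to 52.2 and 49.3 (35.6), PSME2 from 59.9 and 49.1 to 74.5 and 74.3 (19.9) and PSME3 from 92.9 and 96.9 to 98.5 and 97.8 (3.26). PSMB10 was higher too, from 34.8 and 27.8 to 47.0 and 56.1 (20.3).

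The non-ATPases of the cap were split, 5 higher and 4 lower of 11. PSMD11 had the largest difference of all members, from 42.5 and 45.1 to 90.6 and 89.6 (46.3), and its peaks were of like width (1001 and 998 against 1121 and 1085 bp). PSMD1 went from 40.6 and 34.3 to 76.4 and 69.4 (35.4), and PSMD3 from 76.2 and 69.5 to 48.8 and 44.8 (-26.0). PSMD4 (95.6 and 97.4 against 93.9 and 95.0) was called lower and PSMD14 (99.7 in both shCtrl lists, 99.8 in both shHDAC6 lists) higher on differences of -2.06 and 0.13 points. Of 7 beta subunits 2 were higher, PSMB4 (difference 30.8) and PSMB5 (13.8, from 40.3 and 39.8 to 52.3 and 55.4), and 3 lower, PSMB3 (-16.6), PSMB2 (-15.6) and PSMB1 (-6.65). PSMB6 and PSMB7 overlapped. PSMC3IP went from 48.3 and 49.3 to 84.5 and 84.4 (35.6).

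**Figure D5:**
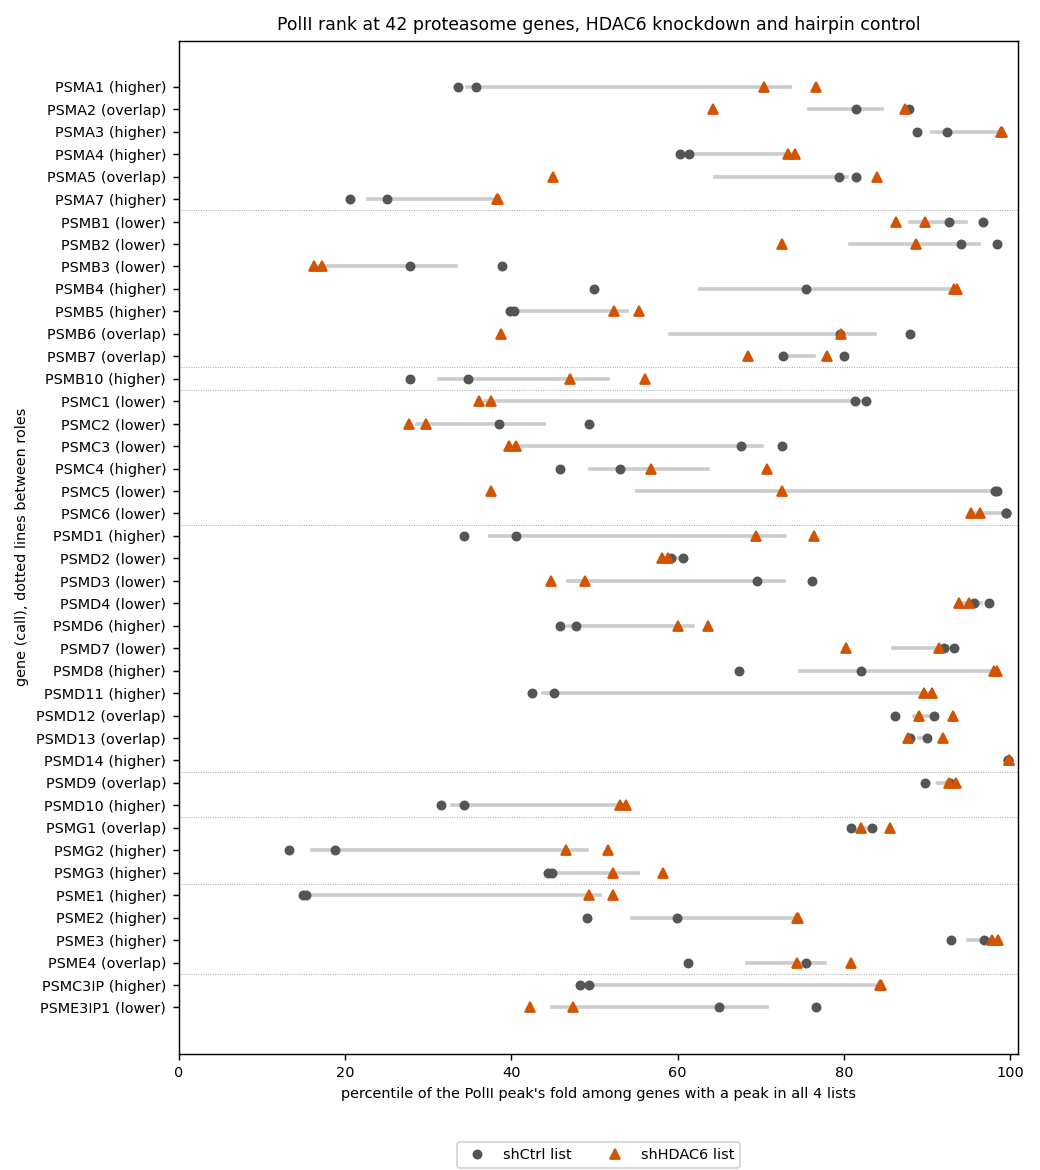
Percentile of the PolII peak's fold among 11996 genes with a peak in all 4 lists, for 42 members in shCtrl (grey circles) and shHDAC6 (orange triangles) cells; grey bars join the group means and dotted lines part the roles. PSMC1, PSMC3 and PSMC5 move to the left while PSMD11, PSME1 and PSMD1 move to the right, and PSMA1 is shown at its outer end.

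The ETS core of the promoter did not sort these calls over all genes. With it, 39.2% of 3452 ranked genes were higher and 39.7% lower after knockdown, and without it 40.4% and 38.9% of 6355. Members with the core numbered 20, of which 8 were higher and 8 lower, and members without it 16, of which 10 were higher and 3 lower.

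Accessibility changed at few members. With NextA 0 of 42 ATAC-marked members were lost (background 0.0901%) and 0 of 4 gained (background 0.167%). Of 40 ranked members 0 were higher (background 3.31%) and 2 lower (background 3.77%). PSMB4 stood at 50.0, 19.7 and 50.2 in control and 12.1, 1.08 and 12.5 with NextA (difference -31.4). PSME3, the nuclear activator, stood at 42.2, 39.5 and 71.9 against 26.1, 27.4 and 26.3 (-24.5). Neither group overlapped the other at these genes, and the smallest exact permutation p, 0.1, applies to both. The ATAC and PolII ranks of PSMB4 thus moved in opposite directions with NextA.

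In the control and NextA groups ATAC list 1 was called on q and lists 2 and 3 on p, and the share of peak numbers kept was 3.92% and 3.9% in control lists 2 and 3 against 21.2% and 21.3% with NextA. In same-numbered pairs, 3 members were higher in all 3 (background 12.6%), PSME2, PSMC5 and PSMG1, and 8 lower in all 3 (background 13.8%). The lower genes were PSMB4, PSME3, PSMD6, PSMB7, PSMC6, PSMA3, PSMA4 and PSMD12.

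After knockdown 0 of 38 ATAC-marked members were lost (background 0.4%) and 0 of 5 gained (background 0.487%). Of 36 ranked members 3 were higher (background 6.37%) and 2 lower (background 6.17%), shares close to those of all genes. PSMG3 went from 10.3, 4.31 and 23.7 to 40.4, 25.2 and 61.3 (difference 29.6). PSMB2 went from 56.0, 47.0 and 46.1 to 77.8, 67.0 and 66.1 (20.6). PSMA2 went from 97.8, 92.8 and 98.6 to 99.4, 99.6 and 99.9 (3.27). The lower genes were PSMC5, from 90.4, 89.4 and 85.4 to 69.8, 76.0 and 63.3 (-18.7), and PSME3IP1, from 80.3, 71.3 and 66.5 to 35.1, 62.7 and 65.7 (-18.2). At PSMC5 ATAC and PolII ranks were both lower after knockdown, whereas at PSMB2 ATAC was higher and PolII lower.

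Comparison of the hairpin control with the parental line was added after the data were seen, and hairpin and passage cannot be told apart in it. PolII was lost at 1 of 43 members, PSMD5 (background 2.26%), and ATAC at 1 of 42, PSMB8 (background 2.85%). PSMD5 had PolII in both control lists (94.0 and 36.8) and both NextA lists (82.2 and 37.2), and in none of the 4 hairpin lists. Its ATAC peak was at 92.5, 87.4 and 95.9 in control and 95.2, 98.8 and 94.2 with NextA, against 27.3 and 61.3 in shCtrl lists 1 and 3 and 26.0 in shHDAC6 list 3. The PSMD5 window also holds an end of CUTALP, and that of PSMB8 ends of PSMB8-AS1 and TAP1.

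Genes of the proteasome system outside the rule, a list of 28 such as NFE2L1, its activating protease DDI2 and the deubiquitinases USP14 and UCHL5, were likewise marked by PolII. All 28 had it in both control lists. HDAC6 peaks in all 4 control lists were found at 4 of the 28 (background 7.92%, and 14.0% of PolII-marked genes). Of 8 eligible genes 6 lost HDAC6 with NextA (background 91.4%): NFE2L1 (mean control percentile 79.4), UFD1 (75.3), RPS27A (74.7), ECPAS (58.9), ADRM1 (37.3) and PITHD1 (16.4). Pan-acetyl peaks were gained at 7 of 12 (background 25.1%, and 53.7% of PolII-marked genes): RPS27A (mean NextA percentile 86.1), TXNL1 (83.2), DDI2 (81.2), USP14 (79.0), SEM1 (73.6), UCHL5 (71.0) and NGLY1 (64.2). No gene of the list was lost or gained in PolII or ATAC. In PolII rank 5 were higher (background 12.5%) and 2 lower (11.9%) of 28 with NextA, and 9 (40.1%) and 9 (39.3%) of 27 after knockdown. In ATAC rank 2 were higher (3.31%) and 2 lower (3.77%) of 24 with NextA, and 0 (6.37%) and 1 (6.17%) of 22 after knockdown.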

How the data were processed

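ChIP, CUT&Tag and ATAC peaks were taken from 32 lists, 1 per sample, grouped by the labels, and the other 9 samples were not analysed here. The submitters' processing notes name the build hg38 and, without roles, MACS2 2.2.7.1, ChIPseeker 1.28.2, Bowtie2 2.4.4, deepTools 3.5.1, Trim Galore 0.6.7 and SAMtools 1.13. Lists hold 9 columns (ChIP, CUT&Tag) or 10 (ATAC). The deposited score is a whole number that follows −log10 p in some lists and −log10 q in others. The deposited fold (column 7) is a linear ratio over the caller's background, and the authors' −log10 p and −log10 q fill columns 8 and 9. Per the files, column 10 of ATAC lists, another deposited value, is the summit's offset. Folds are the authors' values, used to rank peaks within a list. Gaps in the peak numbers show that peaks were removed after calling in lists called on p. No depth is held, and a read depth is not given in the sources used here.

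Repeated intervals were merged to the highest fold. Gene positions came from RefSeq (GRCh38.p14); the 5′ end was used for 15813 genes with a strand, the end with peaks in more lists for 3295, and both for 866. Lost and gained genes were called by presence over all genes, and ranks over genes with a peak in every list; Python 3.11.15, pandas 2.3.3 and scipy 1.17.1 were used, and the calling code was tested on simulated data. Groups had 2 or 3 lists. The members and lists were chosen with earlier results of these data known. In the list of other proteasome-system genes, 2 genes are not reported here and were left out of its counts. Selected values, not those of every list, are given in the text for named members. Named by rule were members lost or gained (up to 10 per comparison) and members with HDAC6 in all 4 control lists. So were the 4 largest higher and lower ranks in each PolII and ATAC comparison, and the 3 highest and lowest in PolII. The rule also named 11 genes: PSMB5, PSMB6, PSMB7, PSMB8, PSMB10, PSME1, PSME2, PSMA8, PSMB11, PSMD4 and PSMD14. Same-numbered ATAC control and NextA lists deviated together from their group means (correlations of 0.525, 0.208 and 0.208 over 9347 genes). Control list 2 with NextA list 3 gave 0.213, and control list 3 with NextA list 2 gave 0.233. These correlations therefore do not single out same-numbered pairs among lists 2 and 3. List 1 was called on q and lists 2 and 3 on p in both groups. Starts of the promoter table, the restriction to PolII-marked genes, the comparison of hairpin control with parental cells, and the split by ETS core were added after the data were seen.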

Additional observations from a re-analysis of the deposited data

How the results depend on the processing

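Of 181 alternative values over the 17 results, 137 stayed within 1.5 times the reported count and 44 did not. The 137 include 10 for HDAC6 ranks with NextA, where 0 members could be ranked and the count could only be 0. They also include 9 for pan-acetyl ranks, with 0 to 2 members ranked. A −log10 q of at least 5 took HDAC6 loss with NextA from 4 members to 0, pan-acetyl gain from 15 to 0, HDAC6 in all 4 control lists from 3 to 0, the Novus members unmarked after knockdown from 6 to 0 and lower ATAC ranks with NextA from 2 to 1; it gave 1 gained member in PolII after knockdown and took the PolII and the ATAC losses between hairpin control and parental cells from 1 to 2 each. Equal list length gave 0, 0 and 0 for the first 3 of these, 1 ATAC rank call with NextA and 2 ATAC changes between hairpin control and parental cells. Over all genes the first 3 counts were 0, 0 and 0 at −log10 q of at least 5, and 0, 39 and 175 at equal length. With both gene ends, 7 members lost HDAC6 and 6 had it in all 4 lists. Leaving out 1 list gave 4 to 35 members that lost HDAC6 (35 without the Novus control list), 15 to 26 with pan-acetyl gain, 0 to 6 pan-acetyl rank calls (6 without control list 1 and 3 without control list 2), 23 to 32 PolII rank calls with NextA against 12, 35 to 39 after knockdown against 33, 3 to 9 ATAC rank calls with NextA against 2, 8 to 12 after knockdown against 5, and 3 to 30 members with HDAC6 in the lists left. Left-out lists gave 0 to 1 ATAC losses or gains with NextA and after knockdown, 1 to 2 PolII losses between hairpin control and parental cells, and 1 for ATAC there. With the replicate block (same-numbered pairs), PolII rank calls with NextA were 22, ATAC calls with NextA 11 and after knockdown 9, and PolII calls after knockdown 37; deviations of same-numbered lists correlated at 0.416 in PolII with NextA and 0.125 after knockdown, and the numbers mark no stated pairing. The block left the HDAC6 and pan-acetyl rank counts at 0, with 0 and 1 members ranked. In ATAC after knockdown, same-numbered lists correlated at 0.0135, 0.00482 and -0.0032. Fewer lists give more chances of a call by construction. A larger window can add or remove calls. At 3 kb the members that lost HDAC6 went from 4 to 6 and pan-acetyl gains from 15 to 14. Other causes were not tested. HDAC6 ranks with NextA gave no value at −log10 q of at least 5 or at equal length, nor did pan-acetyl ranks at −log10 q of at least 5. Peak lists without depth limit all comparisons of presence.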

Other observations

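PolII ranks of 9 of 42 members (21.4%) were called in opposite directions with NextA and after knockdown, against 9.29% of 10285 genes ranked in both comparisons, which share no lists. Ranked by −log10 p the count was 4 members (PSMB5, PSME1, PSMA3 and PSMC4; 9.52%), against 6.98% of genes. With the starts of the promoter table it was 9 of 45, against 9.46% of genes, with PSMF1 in place of PSMG2. PSMB2 (differences of 17.7 and -15.6 percentile points) and PSMD7 (20.2 and -6.81) were higher with NextA and lower after knockdown. PSMD1 (-26.2 and 35.4), PSMB5 (-7.14 and 13.8), PSME1 (-37.5 and 35.6), PSMA3 (-6.08 and 8.4), PSMG2 (-14.6 and 33.1), PSMC4 (-39.4 and 14.2) and PSMD10 (-32.1 and 20.6) were lower and then higher. PSMB4 (23.0 and 30.8) and PSMC3IP (15.9 and 35.6) were higher in both, and PSMB6 had a call with NextA alone. The difference between the comparisons was not tested.

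At the inner RefSeq starts, PSMF1, the inhibitor gene, was lower in PolII rank with NextA (61.7 and 84.2 against 40.7 and 37.9) and higher after knockdown (74.7 and 77.3 against 98.7 and 97.4). PSMG4, a core chaperone, was higher in PolII after knockdown (25.4 and 28.9 against 34.7 and 35.1) and lower in ATAC (15.5, 26.6 and 31.2 against 14.7, 2.08 and 13.0). PSMG2 at any of its starts was higher after knockdown by 5.45 points, against 33.1 at the outer end alone.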
